A study of Mus musculus with 14 samples.

Results

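Arc, Npas4, Homer1, Bdnf, Nptx2, Ptgs2, Gadd45b, Rgs2, Rheb and Vgf are 10 genes of the neuronal activity program, the set of genes that neurons switch on after synaptic stimulation. They were taken by gene symbol from the authors' deposited tables of coding-sequence expression, which name 20492 genes, and all 10 were found. Total RNA from cortex and hippocampus of C57BL/6 mice aged 3 months had been sequenced in controls and in mice with depletion of TRF2, the telomere-binding protein encoded by Terf2. The labels give the genotypes as control and TRF2 depleted, and the design text names the cohorts WT and TRF2-DCX-cre, so the depletion was driven by a Cre recombinase under Dcx, which young, migrating neurons express. How large a share of cortical or hippocampal cells carried the deletion was not given in the sources used here, nor was the Terf2 allele. Of 14 samples, 4 were control cortex, 3 TRF2-depleted cortex, 3 control hippocampus and 3 TRF2-depleted hippocampus. For 1 more TRF2-depleted sample the title names hippocampus and the tissue tag cortex, so it has no group here. The hippocampus table also holds a condition called DKO, which no label describes, so neither its genotype nor its number of samples is known here.

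Synaptic stimulation raises calcium in the neuron, and calcium-dependent kinases then act on transcription factors already present, such as CREB, SRF and the MEF2 proteins. These switch on early genes within minutes, some of which encode transcription factors such as Npas4, while others encode proteins that act directly on synapses and are called effectors. Arc promotes removal of AMPA-type glutamate receptors from the synaptic membrane, the short form of Homer1 uncouples group I glutamate receptors from their scaffold, Nptx2 is secreted and clusters AMPA receptors, and Bdnf and Vgf yield secreted growth factors and peptides. Ptgs2 makes prostaglandin precursors, Gadd45b takes part in DNA demethylation and stress signalling, Rgs2 shortens G protein signals, and Rheb is the small GTPase that activates the kinase complex mTORC1.

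All levels are FPKM, fragments scaled by transcript length and by the mapped total, and the authors' deposited tables give 1 value per condition with the replicates pooled. No value per sample was analysed here, so no SD between replicates can be given, whether single samples overlap between groups cannot be seen, and the read depth is unknown. Each difference is judged by the authors' own Cuffdiff test, and a row is called when its deposited q-value, the p-value adjusted over many rows, is 0.05 or less. The error printed beside a log2 ratio is the standard error that the deposited p implies under a normal law. The smallest p the tables hold is 5e-05, and at that p the implied error is an upper bound. Summed over its 3 rows, Terf2 stood at 3.59 FPKM in control samples and at 0.202 FPKM in TRF2-depleted cortex according to the authors' deposited table. In hippocampus it stood at 2.01 FPKM in control, 0.883 FPKM in TRF2-depleted and 0.753 FPKM in DKO samples, where none of its rows was tested. The tissue labels matched the sums of their marker lists. The 7 cortical excitatory neuron markers summed to 52.8 FPKM in control cortex and 29.2 FPKM in control hippocampus. The 7 hippocampal neuron markers summed to 17.2 and 81.0 FPKM. Rorb, a transcription factor of layer IV cortical neurons, stood at 9.80 and 3.99 FPKM, and the dentate granule cell gene C1ql2 at 1.02 and 19.2 FPKM. Bcl11b of the cortical list went the other way, at 4.24 FPKM in control cortex and 7.32 FPKM in control hippocampus.

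Promoter windows of 300 bases, running from 250 bases before to 50 bases after a RefSeq transcript start, were taken from RefSeq (GRCm38.p6) for 7 of the 10 genes, 14 windows in all. Arc, Nptx2 and Vgf have no entry in the table used. The letters TGACG, the core of the cAMP response element that CREB binds, were searched on both strands, and a match was held by 6 of the 14 windows (42.9%), each of another gene, against 20.8% of 32851 windows of all genes. The genes were Npas4, Homer1, Bdnf, Ptgs2, Rgs2 and Rheb. The 3 windows printed here belong to the transcription factor, the scaffold gene and the growth factor whose transcription is known to follow activity, and capitals mark TGACG or its reverse complement CGTCA.
Npas4, chr19:4989922-4990221, minus strand: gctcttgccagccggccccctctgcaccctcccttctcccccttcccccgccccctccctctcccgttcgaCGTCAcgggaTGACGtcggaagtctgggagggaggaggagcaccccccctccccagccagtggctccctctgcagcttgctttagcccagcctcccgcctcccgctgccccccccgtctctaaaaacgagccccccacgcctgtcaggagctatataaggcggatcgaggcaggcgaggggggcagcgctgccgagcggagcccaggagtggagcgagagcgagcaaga
Homer1, chr13:93303507-93303806, plus strand: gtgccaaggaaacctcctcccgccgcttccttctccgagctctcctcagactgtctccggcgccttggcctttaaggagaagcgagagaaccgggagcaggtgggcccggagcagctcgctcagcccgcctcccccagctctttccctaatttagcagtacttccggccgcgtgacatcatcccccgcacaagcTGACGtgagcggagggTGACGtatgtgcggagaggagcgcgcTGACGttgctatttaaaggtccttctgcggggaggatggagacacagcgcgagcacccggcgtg
Bdnf, chr2:109692186-109692485, plus strand: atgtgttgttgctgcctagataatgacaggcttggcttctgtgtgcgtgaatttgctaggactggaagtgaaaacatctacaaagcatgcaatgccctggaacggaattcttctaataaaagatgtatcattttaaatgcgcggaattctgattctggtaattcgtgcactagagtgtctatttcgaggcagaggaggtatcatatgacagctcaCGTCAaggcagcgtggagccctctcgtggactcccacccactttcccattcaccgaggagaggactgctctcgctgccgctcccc
The Npas4 window holds 2 matches, 179 and 169 bases before the start. The Homer1 window holds 3 matches, 56, 40 and 14 bases before the start, and 1.03% of all windows hold 3 or more. Bdnf has 7 windows, and the one shown is the only one of them with a match, 35 bases before the start. These matches are descriptions of letters and not of binding. Of the other motifs searched on both strands, GCGTG was held by 7 of the 14 windows and by 32.4% of all windows. The E-box CACGTG was held by 3 windows (Ptgs2, Gadd45b and Rheb) against 7.15%, TGANTCA, an AP-1 site, by 1 (a Bdnf window) against 7.81%, and TATAAA by 1 (Gadd45b) against 13.6%. The CArG box, the element SRF binds, was found in 0 of the 14 windows and in 1.63% of all windows. None of these motifs contains another, and each was counted on its own.

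In the control tissues the 10 genes spanned a wide range of levels. In control cortex Arc stood highest at 99.98 FPKM, followed by Homer1 at 74.9 FPKM with its rows summed, Vgf at 34.3, Rheb at 32.9 and Nptx2 at 21.1 FPKM. Rgs2 at 8.72, Bdnf at 7.70, Gadd45b at 5.76, Ptgs2 at 5.25 and Npas4 at 3.54 FPKM made up the lower part of the order in the authors' deposited table. In control hippocampus Rheb led at 40.2 FPKM, followed by Arc at 38.4, Vgf at 35.6 and Homer1 at 32.7 FPKM. The other 6 genes lay between 1.82 FPKM (Npas4) and 8.41 FPKM (Bdnf) in the authors' deposited table. FPKM is scaled by length, so these levels can be set beside each other, but without values per sample it cannot be said which neighbours in the order differ beyond their spread. Npas4 was lowest in every condition apart from TRF2-depleted cortex, where Ptgs2 was lowest.

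**Figure D1:**
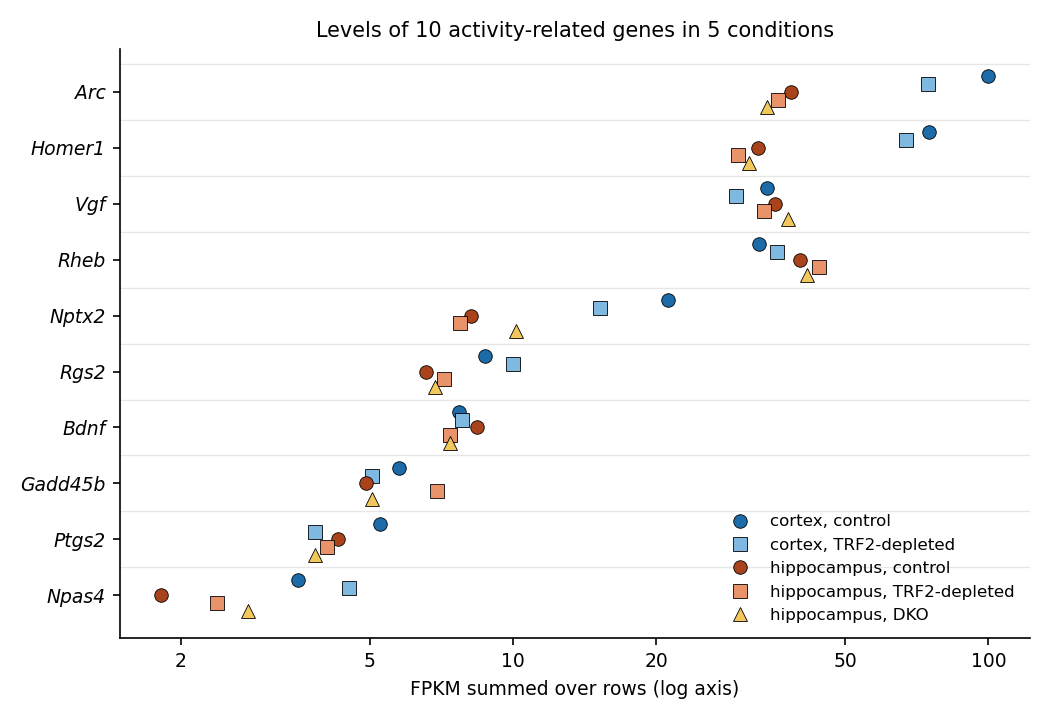
Level of each of the 10 genes in the 5 pooled conditions, as FPKM summed over the rows of a gene on a log axis; each point is 1 pooled value of the authors' deposited tables, with no error bar because no values per sample were used, and the slight vertical offsets within a gene carry no meaning. Arc, Homer1 and Nptx2 stand more than 2-fold higher in control cortex than in control hippocampus, while Rheb, Vgf and Bdnf lie slightly to the left in cortex.

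Arc, Nptx2 and Homer1 stood higher in control cortex than in control hippocampus, by 2.60-fold, 2.59-fold and 2.29-fold. Npas4 was 1.94-fold, Rgs2 1.33-fold, Ptgs2 1.23-fold and Gadd45b 1.17-fold as high in cortex as in hippocampus. For Vgf, Bdnf and Rheb the ratio of cortex to hippocampus was 0.964, 0.915 and 0.817. So 7 of the 10 genes were higher in cortex, and 3 by at least 2-fold, beside 39.7% and 4.90% of the 10167 genes compared. The tables of the 2 tissues were normalised separately and hold no test between them, so this order is a description of 2 pooled controls.

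TRF2-depleted cortex had lower levels of the synaptic effectors Arc and Nptx2 than control cortex. Arc, which regulates AMPA receptor removal and is encoded at chr15:74669081-74672570 (mm10), stood at 99.98 FPKM in control samples and at 74.7 FPKM in TRF2-depleted cortex according to the authors' deposited table. Arc fell by 25.3%, a log2 ratio of -0.42 with an implied error of at most 0.104 and a 95% interval from -0.62 to -0.22 (p = 5e-05, q = 0.00864, per the authors' deposited table). Nptx2, the secreted pentraxin at chr5:144545887-144557478, stood at 21.1 FPKM in control samples and at 15.2 FPKM in TRF2-depleted cortex according to the authors' deposited table. It fell by 28.0%, a log2 ratio of -0.47 with an implied error of at most 0.117 and a 95% interval from -0.70 to -0.24 (p = 5e-05, q = 0.00864, per the authors' deposited table). Both genes have a single row, so their values need no division of reads between coding sequences, and both deposited p-values are the smallest the table holds. In tissue RNA, fewer cells of a type and less RNA per cell cannot be told apart.

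These were the 2 called rows among the 11 tested rows of the 10 genes in cortex, where 29 of 9536 tested rows of all genes (0.304%) were called and 22 (0.231%) were called lower. At an unadjusted p under 0.05 stood 5 of the 11 rows, against 595 of all tested rows (6.24%), and they belonged to Arc, Nptx2, Ptgs2, Homer1 and Npas4. With rows summed, 6 of the 10 genes had a log2 ratio below 0 and the median was -0.18, beside a median of -0.03 over 11084 genes, of which 55.2% were below 0. The genes were chosen with results of these data known, so no test is attached to that median.

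Ptgs2, the inducible cyclooxygenase at chr1:150100124-150108012, stood at 5.25 FPKM in control samples and at 3.83 FPKM in TRF2-depleted cortex. Its log2 ratio of -0.46 (95% interval -0.76 to -0.15) lay between those of Arc and Nptx2, but it was not called in the authors' deposited table (p = 0.00335, q = 0.141). Npas4, an early transcription factor that regulates inhibitory synapses and lies at chr19:4984355-4989971, had the opposite sign. It stood at 3.54 FPKM in control samples and at 4.53 FPKM in TRF2-depleted cortex, a log2 ratio of 0.36 (95% interval 0.04 to 0.67) that was not called in the authors' deposited table (p = 0.0265, q = 0.37). Arc and Npas4, which are often induced by the same stimuli, therefore had point estimates on different sides of 0 in this tissue.

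In cortex Vgf, Gadd45b, Rgs2 and Rheb had intervals that include 0. Vgf, the precursor of several neuropeptides at chr5:137026395-137033526, stood at 34.3 FPKM in control samples and at 29.4 FPKM in TRF2-depleted cortex (log2 ratio -0.22, 95% interval -0.49 to 0.05, q = 0.576, per the authors' deposited table). Gadd45b, at chr10:80930091-80932204, stood at 5.76 and 5.04 FPKM (log2 ratio -0.19, 95% interval -0.58 to 0.19, q = 0.751, per the authors' deposited table). Rgs2, at chr1:143999338-144004149, went the other way with 8.72 and 10.01 FPKM (log2 ratio 0.20, 95% interval -0.05 to 0.45, q = 0.589, per the authors' deposited table). Rheb, at chr5:24802823-24842662, stood at 32.9 and 36.0 FPKM (log2 ratio 0.13, 95% interval -0.31 to 0.57, q = 0.87, per the authors' deposited table). The intervals of Vgf and Gadd45b leave room for a fall of the size seen for Arc, and those of Rgs2 and Rheb for a rise of that size. A failed test therefore does not show that these genes were unaltered.

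**Figure D2:**
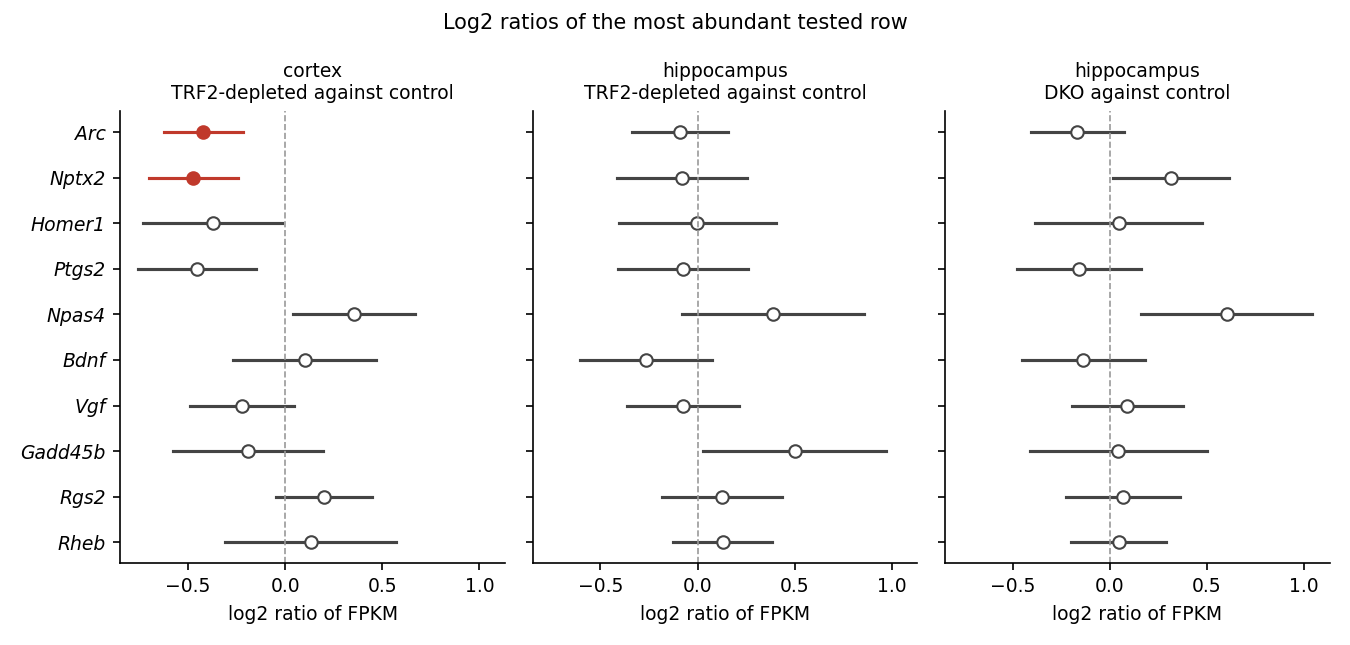
Log2 ratio of FPKM for the tested row with the highest FPKM of each gene (row 1, row 1 and row 2 of Homer1 from left to right), in 3 comparisons of the authors' deposited tables; the points are ratios, the horizontal lines are 95% intervals implied by the deposited p, and filled red points are rows with a deposited q of 0.05 or less. Arc at -0.42 and Nptx2 at -0.47 in cortex are the filled points, and all other points are open.

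Among markers of other cells, striatal projection neuron genes stood higher in the TRF2-depleted cortex. Of 10 such markers 9 were measured and all 9 had a log2 ratio above 0, with a median of 0.38. The list summed to 76.1 FPKM in the control and 94.9 FPKM in the TRF2-depleted cortex. None of the 9 was called in the authors' deposited table, and 5 had an unadjusted p under 0.05. Adora2a, a defining marker of one striatal class, was near 0 in both at 0.000187 and 0.000129 FPKM. The choroid plexus list summed to 96.7 FPKM in the control and 1.87 FPKM in the TRF2-depleted cortex, with the transthyretin gene Ttr called lower and Kcne2 listed at 0 in the TRF2-depleted samples. The summed level of 7 cortical excitatory neuron markers was 52.8 and 53.2 FPKM, and 5 lay above 0 with a median of 0.08. Fezf2, 1 of the 2 below 0, went from 9.35 to 6.94 FPKM, a log2 ratio of -0.43. The 6 interneuron markers summed to 225.6 and 239.3 FPKM, and 4 lay above 0 with a median of 0.06. Pvalb went from 29.3 to 36.2 FPKM, a log2 ratio of 0.30. Fezf2 and Pvalb were the only genes of either list with an unadjusted p under 0.05, and neither was called in the authors' deposited table. Of 5 measured microglia markers 4 lay below 0 with a median of -0.28, the list summed to 32.4 and 27.0 FPKM, and P2ry12 was listed at 0 in TRF2-depleted cortex against 0.961 FPKM in control. Of 6 oligodendrocyte markers 4 lay below 0 with a median of -0.21, and their sums were 712.7 and 654 FPKM. The meningeal list had a median of -0.20, with 4 of 6 below 0 and sums of 21.4 and 19.5 FPKM. The medians of the thalamic, hippocampal, astrocyte and endothelial lists lay between -0.07 and 0.12. None of these 7 lists had a called gene in cortex, and 1 microglia and 1 oligodendrocyte gene had an unadjusted p under 0.05. The part of tissue composition in the Arc and Nptx2 values was not tested.

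Homer1 and Bdnf are the 2 members with several coding-sequence rows. Homer1 at chr13:93303711-93412405 in the cortex table encodes long scaffold forms that link group I glutamate receptors to Shank proteins, and a short, activity-induced form that lacks the linking end. GENCODE M21 lists 11 distinct coding sequences for Homer1, from 540 to 1110 bases, and the tables give 4 rows with no transcript named. In cortex, row 1 stood at 43.7 FPKM in control samples and at 33.7 FPKM in TRF2-depleted samples (log2 ratio -0.37, 95% interval -0.73 to -0.01, p = 0.0415, q = 0.44, per the authors' deposited table). Row 4 stood at 31.2 and 33.0 FPKM (log2 ratio 0.08, 95% interval -0.22 to 0.38, p = 0.593, per the authors' deposited table). The share of row 1 in the Homer1 total was 58.3% in control and 50.3% in TRF2-depleted cortex, and neither row was called. Rows 2 and 3 held under 1 FPKM in each cortex condition and were not tested, and row 3 is listed at 0 in control. Summed over rows, Homer1 stood at 74.9 and 67.1 FPKM, a log2 ratio of -0.16.

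In hippocampus the Homer1 signal lay in rows 1 and 2 rather than 1 and 4. Row 1 stood at 16.2 FPKM in control, 16.2 in TRF2-depleted and 14.6 FPKM in DKO samples, and row 2 at 15.7, 13.0 and 16.2 FPKM according to the authors' deposited table. Row 1 held 49.6%, 54.6% and 46.5% of the total, and no row was called. Row numbers cannot be matched between the tables: over 2521 rows of genes with several rows, the control levels of same-numbered rows in the 2 tissues had a Pearson r of 0.02, beside 0.86 over 6332 genes with 1 row and 0.81 over 1554 genes with several rows after summing. These correlations run across genes on a log2(FPKM + 1) scale and describe the tables. The rows of Homer1 and of Bdnf can therefore be compared between conditions of 1 tissue but not between tissues, and no Homer1 row can be assigned to the long or the short form.

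Bdnf, at chr2:109674700-109727043, encodes the precursor of brain-derived neurotrophic factor, and its many promoters feed a shared final coding exon. GENCODE M21 lists 3 distinct coding sequences, from 747 to 867 bases, and the tables give 2 rows. In the cortex table row 2 held 82.1% of the Bdnf total in control and 86.9% in TRF2-depleted samples, and in the hippocampus table the row numbered 2 held 90.2%, 85.9% and 93.8% in control, TRF2-depleted and DKO samples. In cortex row 2 stood at 6.32 FPKM in control samples and at 6.77 FPKM in TRF2-depleted samples (log2 ratio 0.10, 95% interval -0.27 to 0.47, p = 0.596, q = 0.88, per the authors' deposited table). In hippocampus the row of that number stood at 7.59 FPKM in control samples and at 6.32 FPKM in TRF2-depleted samples (log2 ratio -0.26, 95% interval -0.60 to 0.08, p = 0.128, q = 0.886, per the authors' deposited table). The DKO value of this row was 6.90 FPKM (log2 ratio against control -0.14, 95% interval -0.45 to 0.18, p = 0.397, per the authors' deposited table). The row numbered 1 lay between 1.02 and 1.38 FPKM in the cortex table and between 0.456 and 1.04 FPKM in the hippocampus table and was tested in neither. The antisense gene Gm45346 overlaps Bdnf on the minus strand, and whether the authors' counting used strand was not given in the sources used here, so reads of the 2 genes may not be told apart.

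**Figure D3:**
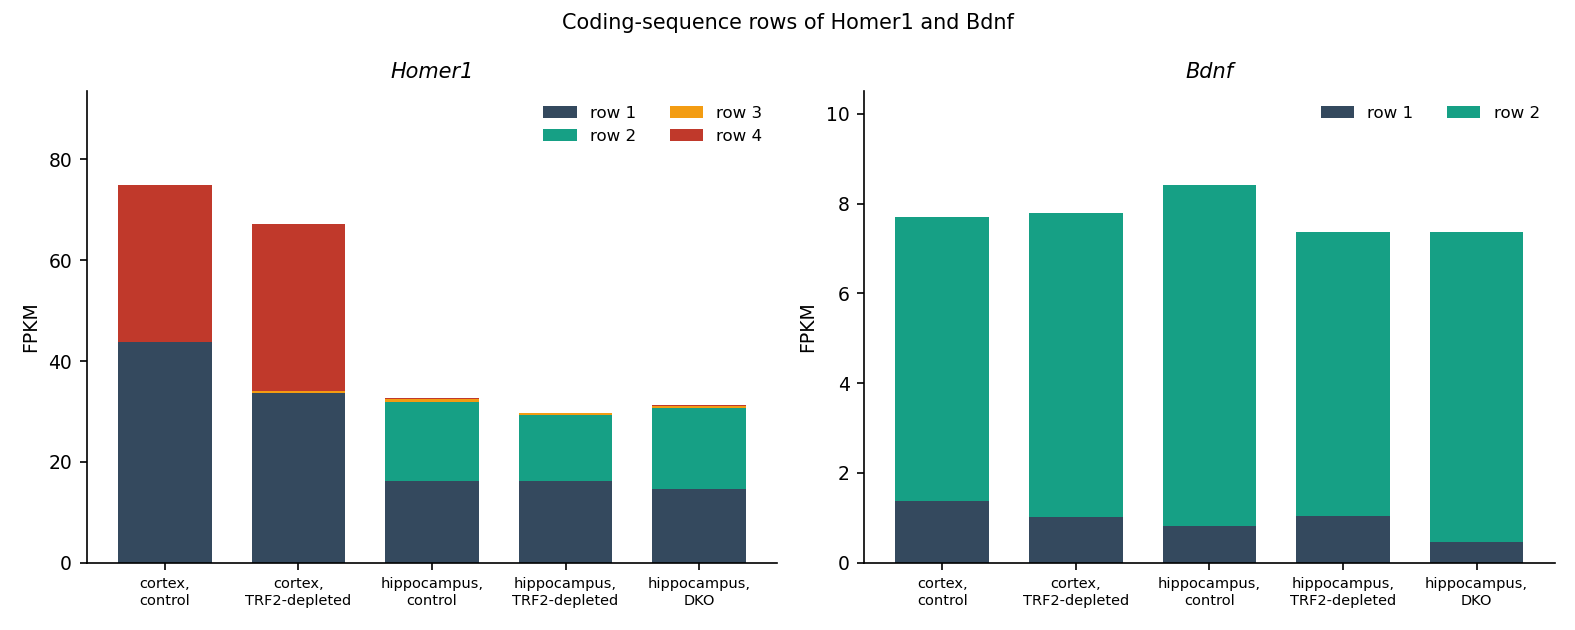
FPKM of each coding-sequence row of Homer1 (left) and Bdnf (right), stacked to the gene total, in the 5 pooled conditions of the authors' deposited tables; bars start at 0, there are no error bars because no values per sample were used, and a row number need not mark the same transcript in cortex and hippocampus. In cortex the lower Homer1 total lies in row 1, at 43.7 FPKM in control samples and at 33.7 FPKM in TRF2-depleted samples. Over all 5 conditions the Bdnf totals lie between 7.36 and 8.41 FPKM.

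In hippocampus, TRF2 depletion was not accompanied by a called change in any of the 10 genes. Of their 11 tested rows 0 were called in the authors' Cuffdiff test and 1 had an unadjusted p under 0.05, where 18 of 11054 tested rows of all genes (0.163%) were called and 540 (4.89%) had such a p. Arc stood at 38.4 FPKM in control samples and at 36.1 FPKM in TRF2-depleted hippocampus (log2 ratio -0.09, 95% interval -0.34 to 0.16, p = 0.466, q = 0.919, per the authors' deposited table). Nptx2 stood at 8.16 and 7.72 FPKM (log2 ratio -0.08, 95% interval -0.42 to 0.26, p = 0.638, per the authors' deposited table). The lower bounds of these intervals lie above the cortex estimates of -0.42 for Arc and -0.47 for Nptx2, which carry an error of their own.

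The member with an unadjusted p under 0.05 was Gadd45b. It stood at 4.90 FPKM in control samples and at 6.93 FPKM in TRF2-depleted hippocampus, a log2 ratio of 0.50 (95% interval 0.03 to 0.97) that was not called in the authors' deposited table (p = 0.0369, q = 0.886). Npas4 stood at 1.82 and 2.38 FPKM (log2 ratio 0.39, 95% interval -0.08 to 0.86, p = 0.105, q = 0.886, per the authors' deposited table), the same sign as in cortex. Ptgs2 stood at 4.27 and 4.06 FPKM, Rgs2 at 6.56 and 7.17, Rheb at 40.2 and 44.0 and Vgf at 35.6 and 33.7 FPKM, with log2 ratios between -0.08 and 0.13. The median log2 ratio of the 10 genes was -0.07 with 6 below 0, and that of 11249 genes was 0.00.

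In the DKO samples of hippocampus the activity transcription factor Npas4 had the largest ratio of the 10 genes, and again none was called. The authors' Cuffdiff test called 0 of 11 tested rows in DKO against control, where 20 of 11030 rows of all genes (0.181%) were called, and 2 had an unadjusted p under 0.05, where 740 (6.71%) of all rows did. Npas4 stood at 1.82 FPKM in control samples and at 2.76 FPKM in DKO samples, a log2 ratio of 0.60 (95% interval 0.16 to 1.04, p = 0.00735, q = 0.566, per the authors' deposited table). Nptx2 stood at 8.16 FPKM in control samples and at 10.2 FPKM in DKO samples, a log2 ratio of 0.32 (95% interval 0.02 to 0.61, p = 0.0376, q = 0.886, per the authors' deposited table). Arc stood at 38.4 and 34.2 FPKM (log2 ratio -0.17, 95% interval -0.41 to 0.07, p = 0.17, per the authors' deposited table). The log2 ratios of Gadd45b, Rgs2, Rheb and Vgf lay between 0.04 and 0.09, and that of Ptgs2 was -0.16. The TRF2-depleted and the DKO comparison share the same control samples, so their values stand side by side here and lend each other no support.

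Set directly against TRF2-depleted hippocampus, the DKO samples differed most in Nptx2 and Gadd45b. Nptx2 stood at 7.72 FPKM in TRF2-depleted and 10.2 FPKM in DKO samples (log2 ratio 0.40, 95% interval 0.09 to 0.70, p = 0.0115, q = 0.661, per the authors' deposited table). Gadd45b stood at 6.93 and 5.05 FPKM (log2 ratio -0.46, 95% interval -0.90 to -0.01, p = 0.0447, q = 0.886, per the authors' deposited table), beside 4.90 FPKM in control. These were the 2 of 11 tested rows with an unadjusted p under 0.05, beside 528 of 11017 rows of all genes (4.79%). The Cuffdiff test called 0 rows of the 10 genes and 17 rows of all genes (0.154%).

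Markers of other cells also moved between the hippocampal conditions. The 6 choroid plexus markers summed to 276.5 FPKM in control, 489.9 in TRF2-depleted and 9.54 FPKM in DKO samples, and 3 of the 4 tested in DKO against control were called lower. The 7 meningeal fibroblast markers summed to 32.6, 47.2 and 37.9 FPKM, with 0 called. Against control, 7 lay above 0 in TRF2-depleted (median 0.62) and 6 in DKO samples (median 0.47). Of 6 tested, 5 and 2 had an unadjusted p under 0.05, beside 4.89% and 6.71% of all rows. Of 6 interneuron markers 5 and 6 lay above 0 (medians 0.19 and 0.22), 2 and 1 with such a p and 0 called. Of 7 markers of hippocampal neurons, the dentate genes Dsp and C1ql2 were called lower in both TRF2-depleted and DKO hippocampus in the authors' deposited table, C1ql2 from 19.2 FPKM in control to 11.4 and 12.7 FPKM, while the sum of the list was 81.0, 70.3 and 84.0 FPKM. Of 6 thalamic markers, Zic1 alone was called, higher in both, from 2.12 FPKM in control to 4.51 and 4.69 FPKM. The thalamic list summed to 17.4, 22.3 and 21.8 FPKM. Of its measured genes 2 of 6 lay below 0 in TRF2-depleted and 2 of 5 in DKO samples, in each case Tcf7l2 and Rora. The other marker lists had 0 called genes in comparison with control. Their part in the values of Npas4, Nptx2 and Gadd45b was not tested.

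Since Arc and Nptx2 were called in cortex and not in hippocampus, the difference between the tissues was tested itself. The log2 ratios of TRF2-depleted to control were subtracted, with the errors implied by the authors' p-values combined, and p-values from a normal law were adjusted over 8330 genes by the Benjamini-Hochberg method. Of these genes 2 passed at 0.05 and 453 (5.44%) had an unadjusted p under 0.05. None of the 10 members passed, and 2 had an unadjusted p under 0.05. For Arc the cortex ratio lay 0.33 further below 0 than the hippocampus ratio (difference -0.33, 95% interval -0.65 to -0.01; with errors from the authors' table, p = 0.0439, adjusted p = 0.896). For Nptx2 the difference was -0.39 (95% interval -0.80 to 0.01; with errors from the authors' table, adjusted p = 0.908). Gadd45b had the largest difference, -0.69 (95% interval -1.30 to -0.08; with errors from the authors' table, p = 0.0258, adjusted p = 0.824), from a ratio of -0.19 in cortex and 0.50 in hippocampus. Ptgs2 differed by -0.38, Homer1 by -0.37 and Bdnf by 0.36, each with an adjusted p between 0.929 and 0.94, and the other 4 members by -0.15 to 0.07. The Homer1 and Bdnf values each set a row of one table against the same-numbered row of the other, and these may be different transcripts. With rows summed, the log2 ratios in cortex and hippocampus were -0.16 and -0.14 for Homer1 and 0.02 and -0.19 for Bdnf, with no test of the sums. The cortex p-values of Arc and Nptx2 are the smallest the table holds, so the cortex errors used for both are upper bounds. Their difference intervals may be too wide and their difference p-values too large. A response of Arc or Nptx2 particular to cortex was thus not established after adjustment.

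Other genes of the pathway were described from 12 lists, each with its called members and its median log2 ratio of rows summed. In cortex, of 24 early transcription factors 18 were tested, 2 were called lower and 0 higher, 11 had an unadjusted p under 0.05, and 18 of the 21 measured lay below 0 with a median of -0.29. The 2 called genes were Per1, a clock component that stimulation also induces, which fell from 19.1 to 14.3 FPKM (q = 0.00864), and the AP-1 subunit Jund, which fell from 25.7 to 20.2 FPKM (q = 0.0437), both in the authors' deposited table. Of the other early response genes 0 of 18 tested were called, 4 reached an unadjusted p under 0.05, and their median was -0.11. Those with the smallest p were Dusp1, a phosphatase that inactivates MAP kinases, at 13.7 FPKM in control samples and at 9.97 FPKM in TRF2-depleted cortex (q = 0.0577, per the authors' deposited table), and Ier5 at 22.4 and 18.4 FPKM (q = 0.16). The late response and secreted genes had 0 of 13 called and a median of 0.06. Over all genes 0.304% of tested rows were called, 0.231% called lower and 6.24% had an unadjusted p under 0.05, 55.2% of genes lay below 0 and the median was -0.03.

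The partners of the single effectors gave no called gene in cortex. Among Homer partners and group I glutamate receptors 0 of 10 tested were called, with a median of -0.11, and the scaffold gene Shank1 stood at 17.7 FPKM in control samples and at 9.63 FPKM in TRF2-depleted samples (p = 0.0912, per the authors' deposited table). The pentraxin partners of Nptx2, which include the AMPA receptor subunits, had 0 of 6 called and a median of -0.01. Bdnf receptors and processing genes had 0 of 9 called and a median of -0.01, with the protease gene Furin at 4.87 and 3.94 FPKM (p = 0.0951, per the authors' deposited table). Sorcs1 went the other way, at 3.02 and 3.64 FPKM in 1 of its 3 rows (p = 0.138 in the authors' Cuffdiff test). For Rheb and mTORC1 the count was 0 of 14 and the median -0.01, and the S6 kinase gene Rps6kb1 stood at 4.24 and 1.49 FPKM in its most abundant row (p = 0.0105, q = 0.251, per the authors' deposited table). Mlst8 went the other way, at 2.02 and 3.57 FPKM in 1 of its 2 rows (p = 0.115 in the authors' Cuffdiff test), with a summed log2 ratio of 0.07. All 5 measured genes of prostaglandin synthesis lay below 0 with a median of -0.16, 0 of 5 were called, and the prostaglandin E synthase gene Ptges2 stood at 7.73 and 5.48 FPKM (q = 0.0858, per the authors' deposited table).

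The Gadd45 list holds the relatives Gadd45a and Gadd45g, and also Gadd45gip1, Tet1, Tet2, Tet3 and Dnmt3a, which are not of that family. This mixed list had 0 of 5 tested genes called and a median of -0.24 in cortex. Gadd45a stood at 4.79 FPKM in control samples and at 3.39 FPKM in TRF2-depleted samples (p = 0.0432, per the authors' deposited table). Granins and peptide-processing genes, the company of Vgf in secretory granules, had 0 of 10 called and a median of -0.09, with Chgb at 42.0 and 35.2 FPKM (p = 0.0064, q = 0.195, per the authors' deposited table). The R4 family of RGS proteins, to which Rgs2 belongs, had 0 of 3 called and a median of -0.01. The transcription regulators that act on activity genes had 0 of 17 called and a median of -0.10. Of these Srf, the serum response factor, stood at 3.04 FPKM in control samples and at 4.87 FPKM in TRF2-depleted cortex (p = 0.0175, q = 0.319, per the authors' deposited table), and so had the opposite sign to most early genes. Mef2a was also higher, at 8.95 and 13.8 FPKM in 1 of its 4 rows (p = 0.0316, q = 0.397 in the authors' Cuffdiff test), while 14 of the 19 measured regulators lay below 0. At an unadjusted p under 0.05 stood 2 genes each of the granin and regulator lists and 1 each of the late response, mTORC1, prostaglandin and Gadd45 lists, and 0 of the Homer, pentraxin, Bdnf and RGS lists.

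In hippocampus, set against control, a single gene of the 12 lists was called. Ptgds, the prostaglandin D synthase made by leptomeningeal, choroid plexus and oligodendrocyte-lineage cells, rose from 165.2 FPKM in control to 264.6 FPKM in TRF2-depleted and 283 FPKM in DKO samples (q = 0.0301 for each, per the authors' deposited table). The meningeal fibroblast markers stood higher in the same 2 conditions, as given with the hippocampal marker sums. The choroid plexus markers summed to 276.5 FPKM in control, 489.9 in TRF2-depleted and 9.54 FPKM in DKO samples. The sums of the oligodendrocyte markers were 681.5, 702.4 and 687.4 FPKM. The part of these cells in the Ptgds values was not tested. In TRF2-depleted hippocampus the early transcription factors had 0 of 19 tested genes called and a median of 0.08, and in DKO 0 of 18 and a median of -0.00. The smallest p of that list in TRF2-depleted hippocampus was that of Egr3, at 13.3 and 7.26 FPKM in 1 of its 3 rows (p = 0.0278, q = 0.84 in the authors' Cuffdiff test). Summed over rows the log2 ratio of Egr3 was -0.11. Fos stood at 5.60 FPKM in control samples and at 7.26 FPKM in TRF2-depleted samples (p = 0.0507, per the authors' deposited table). Per1 stood at 5.35 FPKM in control samples and at 10.3 FPKM in DKO samples (p = 0.0146, q = 0.721), and Nr4a1, an early nuclear receptor, at 15.9 and 11.5 FPKM (p = 0.0158, q = 0.734), both in the authors' deposited table. Rgs8, a relative of Rgs2, stood at 9.67 FPKM in control samples and at 5.24 FPKM in TRF2-depleted hippocampus (p = 0.0002, q = 0.0919, per the authors' deposited table). The transcription regulators had a median of -0.21 with 0 of 19 called in TRF2-depleted samples and a median of -0.04 in DKO. The medians of the other 10 lists lay between -0.12 and 0.16 in TRF2-depleted and between -0.06 and 0.42 in DKO hippocampus. Between 0 and 3 genes of a list had an unadjusted p under 0.05 in either comparison. Set against TRF2-depleted samples, DKO samples had 0 called genes in all 12 lists, 0 to 4 genes of a list with an unadjusted p under 0.05, and list medians from -0.06 to 0.21.

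**Figure D4:**
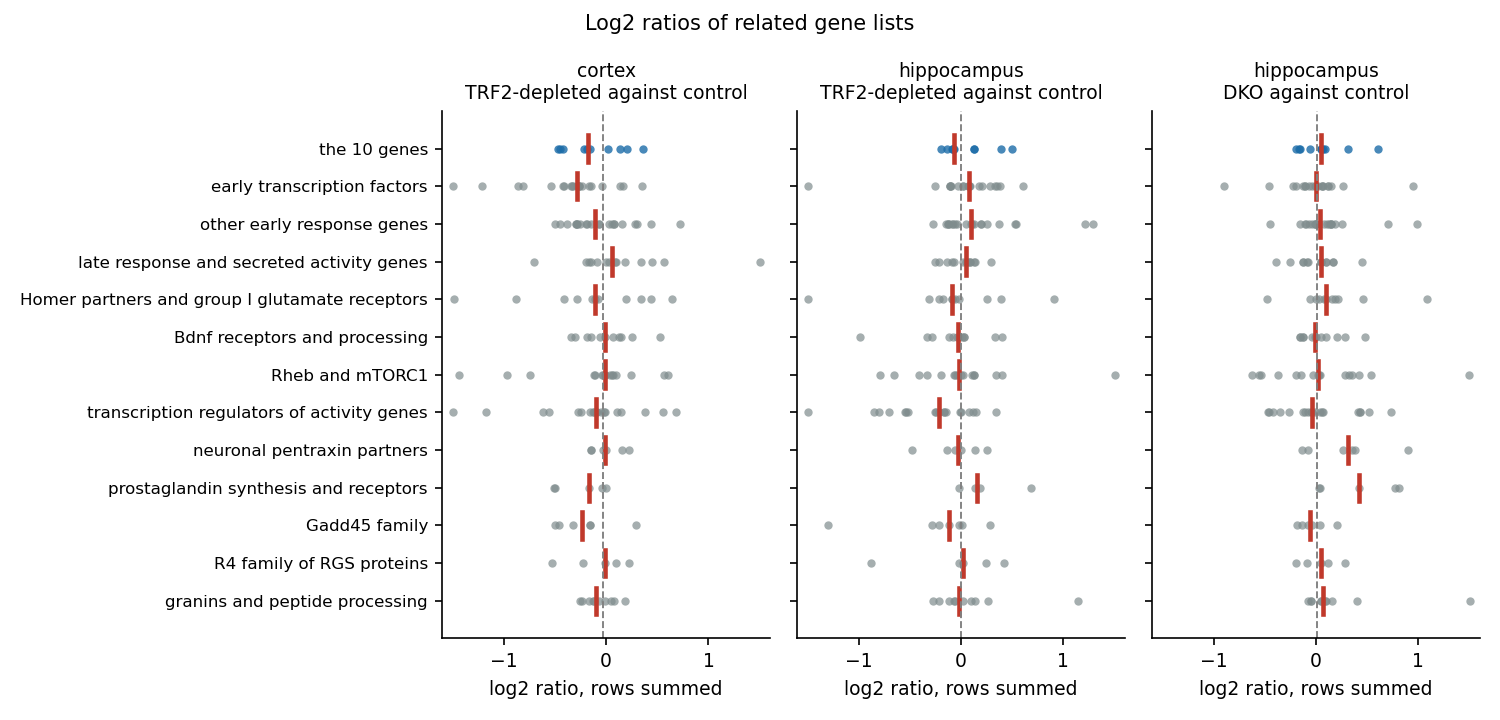
Log2 ratio of every measured gene (rows summed) in the 10-gene set and in 12 lists of related genes, in 3 comparisons of the authors' deposited tables; each dot is a gene, red bars are list medians, the dashed line is the median of all genes, and genes beyond 1.5 on either side (3, 4 and 1 from left to right) are drawn at the limit. The early transcription factors have a median of -0.29 in cortex and of 0.08 and -0.00 in the 2 hippocampal comparisons.

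The genes whose 3 log2 ratios (cortex TRF2-depleted, hippocampus TRF2-depleted and hippocampus DKO, each over its control) lay nearest to those of Arc, Npas4 and Bdnf were found by Euclidean distance among 9653 genes with at least 1 FPKM in all 5 conditions. Nearest to Arc were Dedd, Casp9 and Iws1, at distances of 0.0399, 0.0416 and 0.0466. Nearest to Npas4 were Kcnma1, Mast3 and Tctn2, at 0.0795, 0.0877 and 0.0909. Nearest to Bdnf were Hace1, Rragd and Fn1, at 0.0199, 0.0200 and 0.0202. None of them is on the 12 lists, and with 3 pooled ratios a short distance is a description of these values.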

How the data were processed

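Per the labels' protocols, total RNA was extracted with an RNeasy kit and libraries were made with NEBNext Ultra. CASAVA 1.8, TopHat2, Cufflinks, Cuffdiff and mm10 are named in the submitters' processing notes; settings and annotation were not given in the sources used here. Per the file headers, the deposited tables hold 26348 coding-sequence rows per comparison with FPKM pooled per condition, a test statistic (a score), a p-value and a q-value from the authors. The authors tested 9536 rows in cortex and 11054, 11030 and 11017 in the 3 hippocampal comparisons. Nothing ties samples to animals, so p-values measure the spread between samples as the authors modelled it, and whether the sample placed in no group was pooled is not known.

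FPKM were summed over the rows of a gene and log2 ratios computed without a pseudocount. Implied errors come from the ratio and the deposited p; the deposited statistic could not be used, since a normal law of it gave 20 cortex rows with p under 0.05 where 595 were deposited. The difference between tissues used the tested row with the highest mean FPKM of each gene. Medians over all genes used genes with at least 1 FPKM in 1 group. Named genes were the 10 members, the called members of each list or else some of those with the smallest p, and the 3 nearest genes of Arc, Npas4 and Bdnf. Lists without a called gene did not all have a gene named in each comparison. Marker genes named singly beyond these were chosen after their values were seen. Members, lists and tests were chosen with earlier results of these data known. The set of tests behind the deposited cortex q-values was not given in the sources used here. Loci are the deposited ones, counted from 1. Python 3.11.15 was used with pandas 2.3.3, numpy 2.4.6, matplotlib 3.10.9 and scipy 1.17.1. The difference test was run on simulated data whose p-values came from the normal law that the test assumes, which checks the code only. It does not show how the test behaves on Cuffdiff p-values that stop at 5e-05. Alternatives covered the q threshold, its adjustment, a minimum FPKM, a minimum fold of 1.5, the pseudocount, centring and the most abundant row.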

Additional observations from a re-analysis of the deposited data

How the results depend on the processing

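The 2 members called lower in cortex, Arc and Nptx2, were also called with the q recomputed within the cortex comparison (0.0341 for each). Their calls at a deposited q of 0.1 and of 0.01 follow from the deposited q of 0.00864. Each has a single row above 1 FPKM, so taking the most abundant tested row or at least 1 FPKM left that row in place. With a minimum fold of 1.5 the count was 0, since both ratios are smaller than that. In the 3 hippocampal comparisons the count was 0 under each of these alternatives, though a stricter q or a minimum fold could not have raised it. Of 40 log2 ratios of members, 1 changed sign on centring on the median of all genes (Bdnf, DKO against TRF2-depleted). With the most abundant row 2 changed sign (Homer1, DKO against control and against TRF2-depleted), and only Homer1 and Bdnf have several rows. None of these had been called. A pseudocount of 0.1 or 1 FPKM alters the size of a ratio but cannot change its sign, so it was no check of direction. No paired analysis was possible because the deposited values are pooled per condition and the columns carry no replicate numbers, and for the same reason no replicate could be left out. The planned error from the deposited test statistic was not run. The unknown depth and the pooled values limit what can be said of any member that was not called.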
